A study of Homo sapiens with 18 samples.

Results

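The ribosome biogenesis factors described here were a list of 37 genes, taken by symbol from the deposited expression table. They comprise 3 subunits of RNA polymerase I, 5 protein components of small nucleolar ribonucleoproteins (snoRNPs), 11 factors of small subunit assembly, 13 factors of large subunit assembly and 5 nucleolar RNA-binding or scaffold proteins. A row was found for 35 of the 37. NOB1, the nuclease of the last cut of the small subunit rRNA, and PPAN, a large subunit factor, were not analysed here. All 35 reached the minimum mean of 1 unit set for testing, among 13009 genes tested and 19760 gene names kept. The list was chosen by function, not by measured values, although earlier results of these data were known when it was drawn up.

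Ribosomes are built in the nucleolus, where RNA polymerase I transcribes the precursor rRNA and box C/D and H/ACA snoRNPs guide its methylation and pseudouridylation. A large early assembly, the small subunit processome, forms on the nascent transcript, and separate sets of factors then mature the small and large subunits and prepare them for export. The genes of these factors are classic targets of MYC, which binds DNA with MAX at the E-box CACGTG, and proliferating tumour cells generally keep them at high levels.

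RNA was sequenced from a Cas9-expressing derivative of NCI-H211, an established human cell line from the tuft-cell-like, POU2F3-dependent form of small cell lung cancer. POU2F3 is a POU-domain factor that binds octamer DNA and is required for tuft cell fate. There were 3 stable lines, with an empty vector (EV), with a wild-type POU2F3 cDNA that the guide cannot cut (WT), or with such a cDNA in which leucine is replaced by alanine, L191A. Lentivirus delivered either sgPOU2F3, a guide against endogenous POU2F3, or the control guide sgRosa, with 3 infections per line and guide, and RNA was collected on day 5. This gave 6 groups of 3 libraries. All groups share the Cas9 background, and the WT and L191A groups carry an added POU2F3 cDNA beside the endogenous gene. Each genotype was 1 stable line, so replicates are separate infections of that line and p-values measure only the spread between infections.

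Because the MYC motif is a known feature of these genes, the RefSeq promoters were read first (GRCh38.p14, 250 bases before to 50 bases after the annotated start). An entry was found for 31 of the 37 members, 29 of them with expression values. CACGTG, which reads the same on both strands, was present in 11 of these 29 promoters (37.9%), in 33 of 121 promoters of other ribosome biogenesis genes (27.3%), in 1025 of 10127 promoters of the genes tested (10.1%) and in 2030 of 27305 promoters of the whole table (7.43%). The motif began within 15 bases of the start in 9 of the 11, and between 10 bases before and 35 bases after it in all of them. The octamer ATGCAAAT, searched on both strands, was in 0 of the 29 and in 1.41% of the promoters of the genes tested. A match is a description of these letters and does not show that a factor binds there. The E-box of 10 members is shown with its flanks, as 30 bases 5′ to 3′ on the gene's strand with the E-box in capitals. The windows are aligned on the motif, so its place within them does not show its distance from the start. The E-box of NOP2, the other member with the motif, lies too near the end of the entry for such a window.
BYSL, chr6:41921515-41921544, plus strand: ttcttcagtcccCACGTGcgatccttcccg
FBL, chr19:39846356-39846385, minus strand: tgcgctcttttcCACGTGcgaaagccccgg
MRTO4, chr1:19251807-19251836, plus strand: cgtcttccgccgCACGTGgattcagcgcga
NOL6, chr9:33473894-33473923, minus strand: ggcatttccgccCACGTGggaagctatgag
NOP14, chr4:2963374-2963403, minus strand: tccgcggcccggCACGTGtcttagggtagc
PES1, chr22:30591880-30591909, minus strand: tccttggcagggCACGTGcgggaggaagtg
PNO1, chr2:68157885-68157914, plus strand: ggtgcagctgcgCACGTGtttcagccggca
RRP9, chr3:51941892-51941921, minus strand: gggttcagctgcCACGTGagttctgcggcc
UTP20, chr12:101280083-101280112, plus strand: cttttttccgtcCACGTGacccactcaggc
WDR43, chr2:28894658-28894687, plus strand: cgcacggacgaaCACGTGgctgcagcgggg

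Values were TPM, a length-corrected share of the transcripts in a library, divided here by a median-ratio size factor per library (scaled TPM). Differences are on the log2(scaled TPM + 1) scale, which understates the change of low genes, and a gene is called at an adjusted p of 0.05 by limma. Read depth was unknown, since every library of a TPM table has the same total. A pair of libraries stood apart: L191A sgRosa replicate 1, with a size factor of 0.394 and 38.0% of its TPM in the 79 cytosolic ribosomal protein genes, and WT sgPOU2F3 replicate 1, with 0.699 and 32.8%. The other 16 libraries had size factors up to 1.38 and 15.7% to 26.4% in ribosomal protein genes. In this skewed pair long transcripts were low for their group, the log2 level falling by 0.42 and by 0.14 with each doubling of length. Each count is therefore given for all 18 libraries, which share 1 estimate of spread, and for the 16 without the pair. The targeted gene, POU2F3, was at 606, 614 and 654 scaled TPM with sgRosa and 265, 269 and 269.7 with sgPOU2F3 in EV cells. It was at 1228, 1553 and 1474 scaled TPM with sgRosa and 1625, 1276 and 1008 with sgPOU2F3 in WT cells and at 360.1, 1073 and 851 scaled TPM with sgRosa and 608, 672 and 659.5 with sgPOU2F3 in L191A cells, where reads from the cDNA may be counted with those of the endogenous gene. Of 12 tuft-like markers 11 were high enough to be tested. Of 10 lymphoid and myeloid markers 7 stayed under 1 scaled TPM in every library, and CD14, LYZ and CD68 reached 12.1, 3.49 and 2.42. Of 9 neuroendocrine markers 2 stayed under 1 in every library, whereas UCHL1 and NCAM1 had medians of 765 and 88.5.

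As a set, the members were lowest in WT sgRosa cells, and their medians were nearly as high in both L191A groups as in EV cells given sgPOU2F3. The median level of the 35 members was 62.6, 59.8 and 44.8 scaled TPM in the 3 EV sgRosa libraries (replicates 1, 2 and 3, the order used throughout) and 109, 92.6 and 98.7 in the EV sgPOU2F3 libraries. In WT cells it was 39.4, 39.0 and 42.4 with sgRosa and 59.9, 56.3 and 49.5 with sgPOU2F3. In L191A cells it was 88.5, 77.4 and 93.3 with sgRosa and 91.0, 90.7 and 93.8 with sgPOU2F3. The libraries of sgRosa and sgPOU2F3 do not overlap in EV or in WT cells and overlap in L191A cells. By group mean, 29 of 35 members were lowest in WT sgRosa cells, 5 in WT sgPOU2F3 cells and 1 in EV sgRosa cells. The highest group was EV sgPOU2F3 for 13 members, L191A sgRosa for 15 and L191A sgPOU2F3 for 7, or 24, 5 and 6 without the skewed pair. These are bulk RNA values, in which fewer cells of a type and less RNA per cell cannot be told apart.

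**Figure D1:**
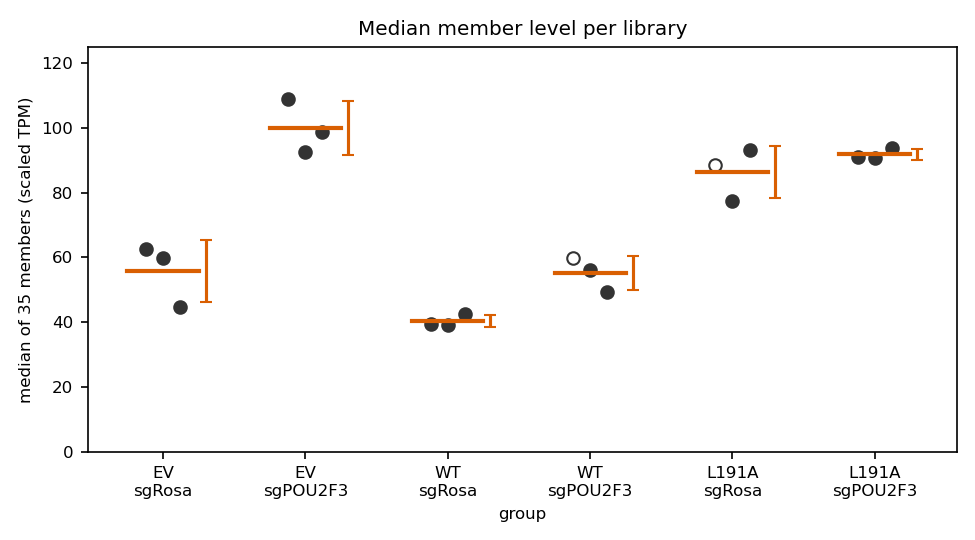
Median level of the 35 members in each library, in scaled TPM. Points are libraries, open points the skewed pair, bars the mean and error lines ± SD of 3 libraries per group; the EV sgPOU2F3 points lie at 92.6 to 109, above all EV sgRosa points, and both L191A groups lie between 77.4 and 93.8.

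**Figure D2:**
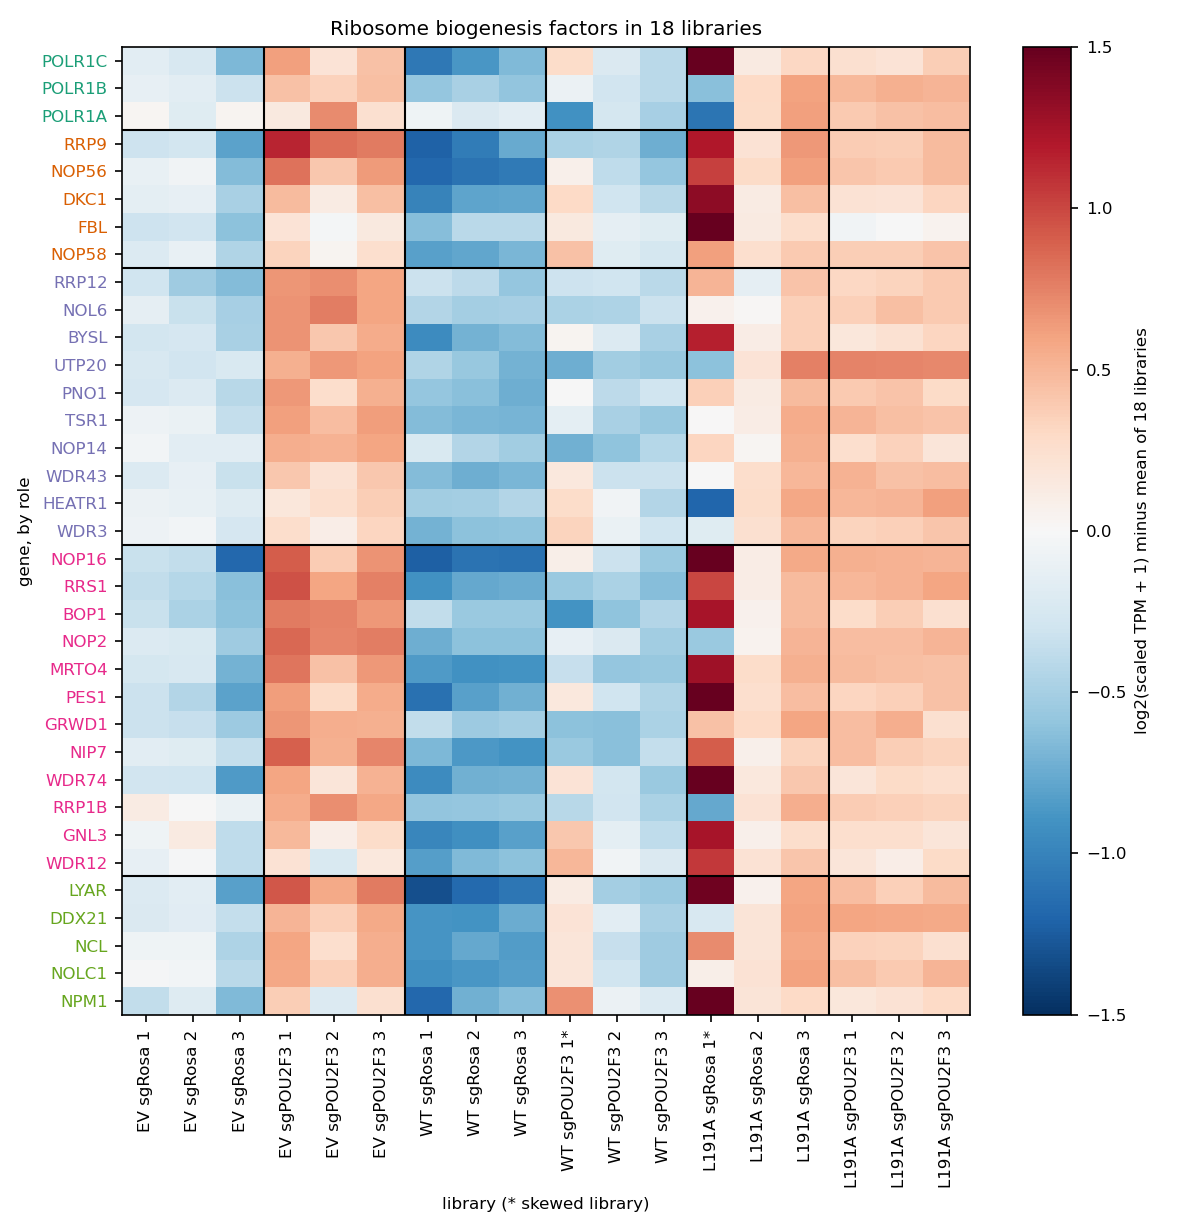
Level of each member in each library as the log2 difference from that member's mean over the libraries, with members grouped by role and libraries by group. Colours stop at the ends of the scale; the WT sgRosa columns are the lowest for most members, and the column of L191A sgRosa replicate 1, of the skewed pair, mixes high and low members.

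The first comparison asked what targeting POU2F3 does to the members where no cDNA covers its loss. In EV cells 23 of 35 members rose with sgPOU2F3 and 0 fell, against 13.0% of all genes called higher. Without the skewed pair 34 rose and 0 fell, against 28.6% of all genes, and WDR12 was the member not called. The median log2 difference over the members was 0.78, from 0.22 to 1.38, and that over all genes was 0.01. In 32 members every sgPOU2F3 library lay above every sgRosa library, against 28.4% of all genes, and the exceptions were WDR12, NPM1 and GNL3. EV sgRosa replicate 3 had the lowest median of its group, and its ribosomal protein share was 17.3% against 21.0% and 22.4%. Without it 17 members rose.

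RNA polymerase I makes the rRNA precursor, and all 3 of its subunits in the list were higher in every sgPOU2F3 library. POLR1B, which forms the catalytic core with POLR1A, was at 31.6, 30.8 and 27.6 scaled TPM with sgRosa and 47.2, 44.2 and 47.9 with sgPOU2F3, and rose by 0.61 (SE 0.21, adjusted p = 0.0441). POLR1C, a subunit shared with RNA polymerase III, was at 63.1, 59.8 and 43.8 scaled TPM with sgRosa and 109, 81.6 and 95.8 with sgPOU2F3, a difference of 0.78 (SE 0.28, adjusted p = 0.0536). POLR1A, the largest subunit, was at 22.4, 19.1 and 22.6 scaled TPM with sgRosa and 24.4, 36.5 and 26.1 with sgPOU2F3, a difference of 0.41 (SE 0.31, adjusted p = 0.367). Replicate 2 was the highest of the sgPOU2F3 libraries for POLR1A and the lowest for POLR1C. Neither gene was called in 18 libraries, and both were called in 16, with adjusted p-values of 0.000214 for POLR1C and 0.0142 for POLR1A.

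Among snoRNP proteins, RRP9, which belongs to the U3 snoRNP of the processome, showed the largest difference of any member. It was at 16.9, 17.2 and 11.7 scaled TPM with sgRosa and 47.96, 38.2 and 37.1 with sgPOU2F3, and rose by 1.38 (SE 0.21, adjusted p = 0.000149). NOP56, a core protein of box C/D snoRNPs, was at 299.7, 312 and 207 scaled TPM with sgRosa and 569.6, 429.8 and 506 with sgPOU2F3, and rose by 0.89 (SE 0.21, adjusted p = 0.00581). In both genes sgRosa replicate 3 was the lowest library, and no libraries overlapped between guides. The other 3 were also higher in every sgPOU2F3 library without being called in 18 libraries. NOP58, the partner of NOP56, averaged 233 ± 28.1 with sgRosa and 322 ± 33.8 with sgPOU2F3 (SD, n = 3), a difference of 0.47. FBL, the rRNA methyltransferase fibrillarin, averaged 791 ± 96.3 and 1127 ± 93.4 in the same order, a difference of 0.51. DKC1, the pseudouridine synthase dyskerin, averaged 339 ± 45.9 and 513 ± 66.3, a difference of 0.60. All 5 snoRNP genes rose in the 16 libraries.

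Of 10 small subunit factors 8 rose. NOL6, a processome component, was at 18.1, 15.6 and 13.8 scaled TPM with sgRosa and 32.4, 34.6 and 30.7 with sgPOU2F3, and rose by 1.00 (SE 0.12, adjusted p = 9.66e-06). RRP12, a repeat protein that takes part in subunit export, was at 12.2, 10.2 and 9.31 scaled TPM with sgRosa and 24.5, 25.3 and 23.4 with sgPOU2F3, and rose by 1.14 (SE 0.15, adjusted p = 2.76e-05). These low-expressed genes had the smallest p-values of the group, with little spread within each guide. BYSL and PNO1, late small subunit factors, rose from means of 30.7 to 57.4 and from 43.6 to 75.6. UTP20, a very large processome protein, rose from 13.4 to 24.9, and TSR1, a late factor related to GTPases, from 46.1 to 77.8. The processome components NOP14 and WDR43 rose from 59.2 to 94.7 and from 120.02 to 178. The exceptions were WDR3 and HEATR1, also processome components, with differences of 0.35 (SE 0.17, adjusted p = 0.145) and 0.40 (SE 0.31, adjusted p = 0.378), and both passed without the skewed pair.

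The large subunit factors rose in 8 of 12 members. PES1, BOP1 and WDR12 form one complex that acts on the large subunit precursor. PES1, at chromosome 22, 30576625 to 30607083 on the minus strand (GRCh38, GENCODE), was at 87.4, 80.4 and 62.3 scaled TPM with sgRosa and 169, 134 and 161 with sgPOU2F3, and rose by 1.01 (SE 0.26, adjusted p = 0.00874). BOP1 was at 88.7, 80.2 and 72.8 scaled TPM with sgRosa and 193, 189 and 177 with sgPOU2F3, and rose by 1.20 (SE 0.21, adjusted p = 0.00057). WDR12 was at 141, 152 and 117 scaled TPM with sgRosa and 178, 131.1 and 171 with sgPOU2F3, groups that overlap, with a difference of 0.22 (SE 0.22, adjusted p = 0.485). Thus 2 of the 3 subunits were called and the groups of the other overlapped. RRS1, which helps bring 5S RNA into the large subunit, was at 16.7, 15.9 and 13.8 scaled TPM with sgRosa and 43.2, 33.4 and 37.4 with sgPOU2F3, and rose by 1.24 (SE 0.17, adjusted p = 4.81e-05). GRWD1, a histone-binding assembly factor, was at 40.6, 39.8 and 34.8 scaled TPM with sgRosa and 81.6, 74.8 and 74.3 with sgPOU2F3, and rose by 0.99 (SE 0.12, adjusted p = 1.19e-05). RRS1 and GRWD1 had the smallest p-values of the large subunit factors. NOP16, MRTO4, NOP2 (an rRNA cytosine methyltransferase) and NIP7 also rose, by 1.28, 1.03, 1.11 and 0.95. WDR74, RRP1B and GNL3 (nucleostemin) had differences of 0.91, 0.61 and 0.40, not called in 18 libraries (adjusted p = 0.0503, 0.0533 and 0.279) and called in 16.

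Of the nucleolar RNA-binding and scaffold proteins 4 of 5 rose. NCL (nucleolin), which binds nascent rRNA, was at 1079, 1079.9 and 819.6 scaled TPM with sgRosa and 1706, 1348 and 1655 with sgPOU2F3, and rose by 0.66 (SE 0.22, adjusted p = 0.0331). NPM1 (nucleophosmin), a nucleolar chaperone, was at 939, 1064 and 767 scaled TPM with sgRosa and 1572, 1058 and 1438 with sgPOU2F3, a difference of 0.55 (SE 0.36, adjusted p = 0.29). For NPM1 the lowest sgPOU2F3 library lay below the highest sgRosa library, and the gene was called only without the skewed pair (adjusted p = 0.0132). It has 45 named pseudogenes in GENCODE, so reads may be split between copies and its level is uncertain. LYAR, a nucleolar zinc finger protein, was at 73.5, 76.3 and 47.9 scaled TPM with sgRosa and 163, 126 and 147 with sgPOU2F3, and rose by 1.15 (SE 0.28, adjusted p = 0.00605). DDX21, an RNA helicase of rRNA transcription and processing, was at 67.8, 70.3 and 61.7 scaled TPM with sgRosa and 113, 101 and 118 with sgPOU2F3, and rose by 0.72 (SE 0.19, adjusted p = 0.00933). The libraries of LYAR and DDX21 do not overlap between guides. NOLC1, a chaperone of snoRNPs, rose from a mean of 78.3 to 123.

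Members with and without a promoter E-box were among those that rose. Of the 11 with the motif 10 rose, with a median difference of 0.88 and a range of 0.51 to 1.38, and of the 18 without it 9 rose, with a median of 0.69 and a range of 0.22 to 1.28. These ranges overlap, and the difference between the subsets was not tested.

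**Figure D3:**
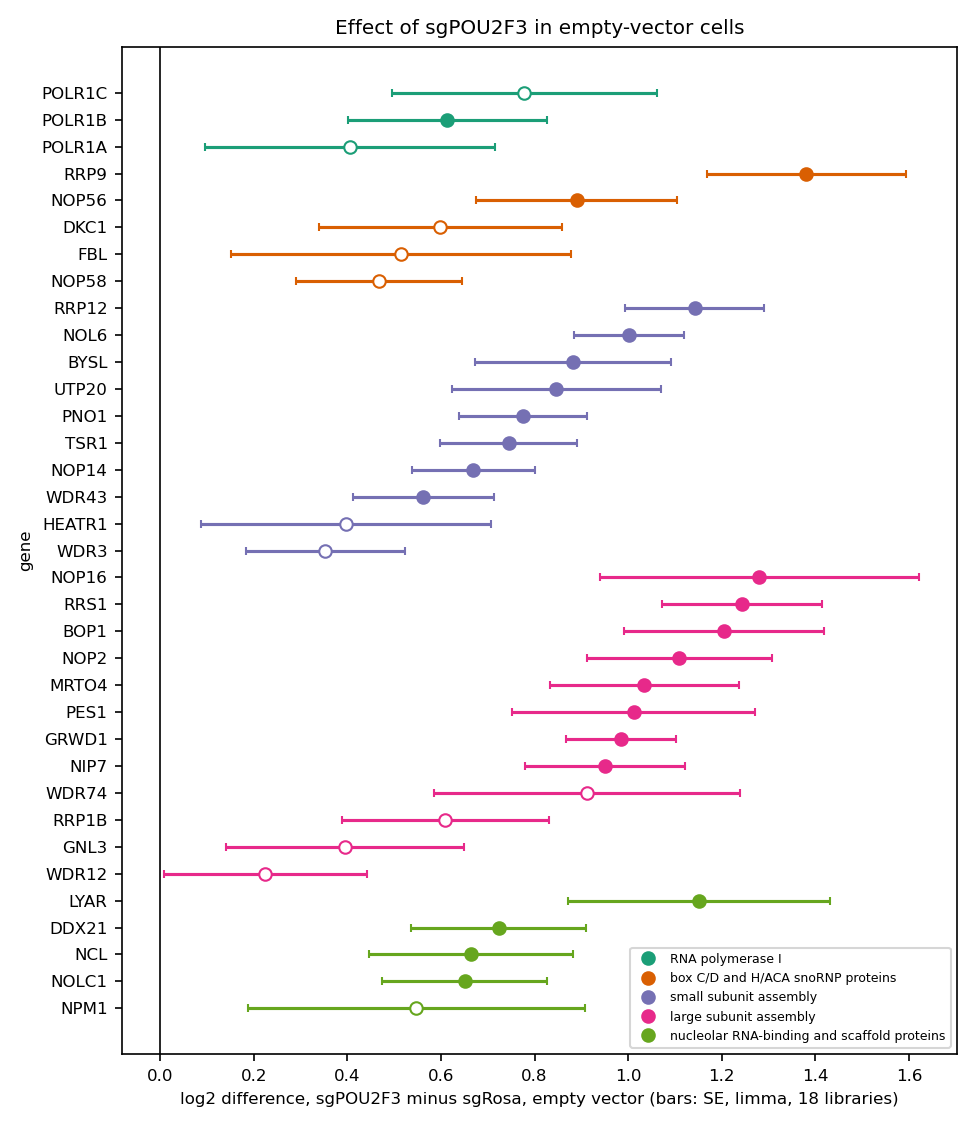
Difference between sgPOU2F3 and sgRosa in EV cells for each of the 35 members on the log2(scaled TPM + 1) scale, with ± 1 SE from the 18-library fit, coloured by role. Filled points passed an adjusted p of 0.05; the points lie between 0.22 for WDR12 and 1.38 for RRP9, all above 0.

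WT cells received the same guide with a cDNA present that it cannot cut. There 9 of 35 members rose and 0 fell, against 7.61% of all genes called higher and 5.09% lower. In 16 libraries 15 rose and 0 fell, against 17.4% and 8.58%. The median difference was 0.45, or 0.37 in 16 libraries. Every sgPOU2F3 library lay above every sgRosa library in 28 members, against 31.5% of all genes, and below in 1, POLR1A, against 24.8%. The count of calls rested on single libraries: 0 members were called without WT sgRosa replicate 1, WT sgRosa replicate 2 or WT sgPOU2F3 replicate 1, and 1 without WT sgRosa replicate 3. Without median-ratio scaling the median of all genes moved to −0.42, that of the members turned to −0.00652, and 1 member was called.

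The members that rose in WT cells were NOP56, NOP58, NOLC1, WDR43, WDR3, WDR12, GNL3, DDX21 and LYAR. NOP56 was at 142, 151 and 155 scaled TPM with sgRosa and 341, 249 and 217 with sgPOU2F3, and rose by 0.82 (SE 0.21, adjusted p = 0.0282). NOP58 was at 157, 161 and 172 scaled TPM with sgRosa and 375, 244 and 231 with sgPOU2F3, and rose by 0.76 (SE 0.18, adjusted p = 0.0177). NOLC1 was at 45.1, 46.7 and 48.2 scaled TPM with sgRosa and 97.9, 69.98 and 59.3 with sgPOU2F3, and rose by 0.66 (SE 0.18, adjusted p = 0.0306). These snoRNP proteins and their chaperone did not overlap between guides. WDR12 was at 85.97, 96.3 and 100.1 scaled TPM with sgRosa and 217, 147 and 132 with sgPOU2F3, and rose by 0.78 (SE 0.22, adjusted p = 0.0345). GNL3, a nucleolar GTPase, was at 58.8, 61.4 and 66.1 scaled TPM with sgRosa and 155, 106 and 89.6 with sgPOU2F3, and rose by 0.86 (SE 0.25, adjusted p = 0.0406). DDX21 was at 42.3, 41.9 and 46.9 scaled TPM with sgRosa and 91.5, 70.7 and 56.4 with sgPOU2F3, and rose by 0.70 (SE 0.19, adjusted p = 0.0307). In all 9 the highest value was in WT sgPOU2F3 replicate 1, of the skewed pair, and replicates 2 and 3 alone also lay above the sgRosa range. LYAR was at 33.4, 37.3 and 39.5 scaled TPM with sgRosa and 92.8, 59.6 and 57.6 with sgPOU2F3, and rose by 0.88 (SE 0.28, adjusted p = 0.0499). All 9 were also called in 16 libraries.

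Of the 26 members not called in WT cells, 7 are given here because their response was called different from that in EV cells. In 5 of these 7 the guides overlapped. GRWD1 was at 39.4, 34.7 and 35.6 scaled TPM with sgRosa and 33.00, 32.7 and 36.6 with sgPOU2F3. NOL6 was at 14.5, 13.8 and 13.9 scaled TPM with sgRosa and 14.2, 14.3 and 15.8 with sgPOU2F3, and RRP12 at 11.9, 11.3 and 9.82 scaled TPM with sgRosa and 12.02, 12.1 and 11.3 with sgPOU2F3. The guides overlap in these 3 genes, which in EV cells had the smallest p-values of their groups. NOP14 was at 54.6, 46.99 and 44.3 scaled TPM with sgRosa and 38.7, 41.98 and 47.4 with sgPOU2F3, and BOP1 at 86.8, 75.9 and 75.9 scaled TPM with sgRosa and 59.9, 73.7 and 82.2 with sgPOU2F3, again overlapping. RRS1 was at 11.2, 12.4 and 12.6 scaled TPM with sgRosa and 14.5, 15.4 and 13.6 with sgPOU2F3, and RRP9 at 8.55, 9.69 and 12.1 scaled TPM with sgRosa and 14.9, 15.2 and 12.3 with sgPOU2F3, without overlap and without a call, at differences of 0.25 and 0.45.

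These 7 are the members whose response was smaller in WT than in EV cells by the test of the difference itself. In that direction 7.99% of all genes were called. Smaller is meant with its sign throughout, so it includes a response below 0, as 5 of 35 members had in WT cells. Responses differed by −1.08, SE 0.17, adjusted p = 0.000376 for GRWD1, by −0.94, SE 0.17, adjusted p = 0.00127 for NOL6 and by −1.05, SE 0.21, adjusted p = 0.00335 for RRP12. The difference was −0.85, SE 0.19, adjusted p = 0.00616 for NOP14, and −1.36, −1.0 and −0.93 for BOP1, RRS1 and RRP9. No member was called with a larger response in WT cells, and RRP9 lost its call when any 1 EV or WT library was left out. Without the skewed pair 17 members were called with a smaller response and 0 with a larger one, against 16.6% of all genes. None of the snoRNP core proteins or nucleolar proteins was among the 17 apart from RRP9, whereas 7 of 10 small subunit factors and 7 of 12 large subunit factors were, with 2 of 3 polymerase subunits.

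The remaining members of interest in WT cells lay between these sets. PES1 was at 49.8, 62.1 and 66.05 scaled TPM with sgRosa and 122, 89.1 and 79.7 with sgPOU2F3, a difference of 0.69 (SE 0.26, adjusted p = 0.0799). NCL was at 614, 663 and 632 scaled TPM with sgRosa and 1289, 892 and 779 with sgPOU2F3, a difference of 0.60 (SE 0.22, adjusted p = 0.0715). NPM1 was at 538, 735 and 779 scaled TPM with sgRosa and 1956, 1141 and 1056 with sgPOU2F3, a difference of 0.98 (SE 0.36, adjusted p = 0.0747). None of these 3 overlapped between guides and none was called in 18 libraries. Of RNA polymerase I, POLR1A was at 20.9, 18.7 and 19.6 scaled TPM with sgRosa and 11.2, 18.1 and 15.2 with sgPOU2F3, POLR1B at 22.8, 24.5 and 22.7 scaled TPM with sgRosa and 32.4, 28.2 and 26.04 with sgPOU2F3 and POLR1C at 32.97, 38.2 and 44.1 scaled TPM with sgRosa and 85.4, 60.8 and 53.04 with sgPOU2F3. POLR1A was lower and the other subunits higher in each sgPOU2F3 library, at differences of −0.41, 0.29 and 0.75, none called in 18 libraries. The lowest POLR1A value was in the skewed library, and without the pair the POLR1A difference was −0.23 (adjusted p = 0.233).

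**Figure D4:**
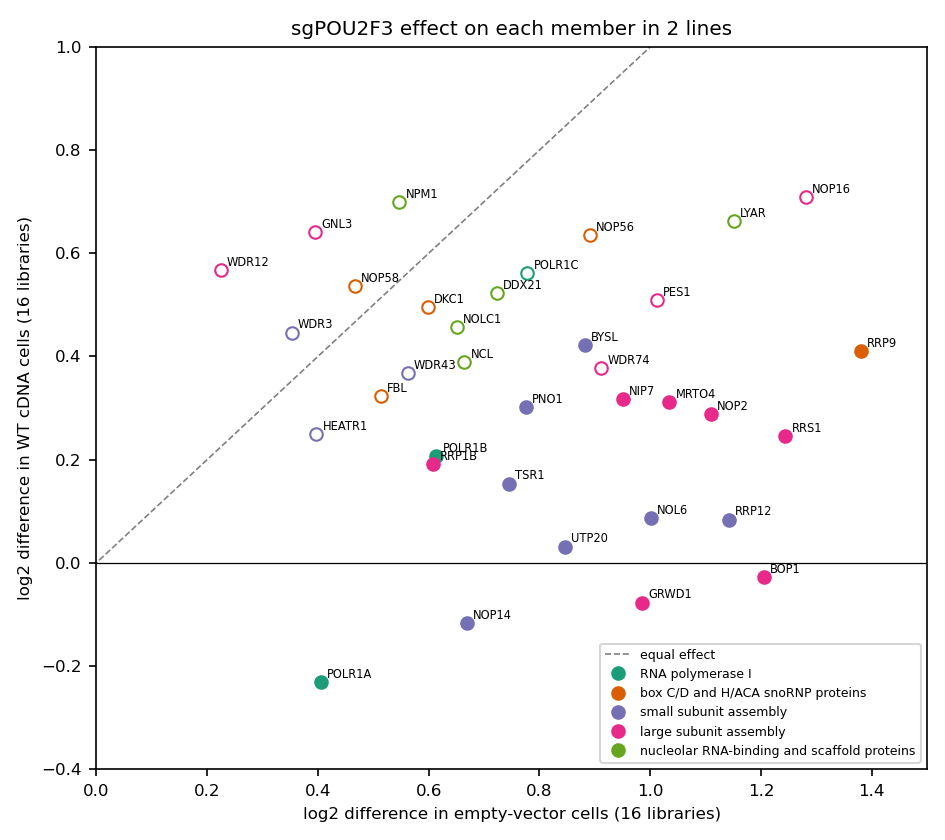
Difference between sgPOU2F3 and sgRosa in WT cells against that in EV cells for the 35 members in the 16-library fit, both on the log2(scaled TPM + 1) scale, with a dashed line of equal effect. Filled points are the 17 members whose response differed between the lines in that fit, and they lie below the line; the EV and WT groups share no libraries.

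In L191A cells no member was called for the guide. By limma 0 of 35 rose and 0 fell in 18 libraries, where 6.4% of all genes were called higher and 3.37% lower, and 0 and 0 without the skewed pair, where 9.18% and 6.35% were called. At an unadjusted p under 0.05 there were 3 higher (NOL6, NOP2 and UTP20) and 1 lower (FBL) in 18 libraries and 0 in 16. The median difference was −0.03, or 0.05 in 16 libraries. Every sgPOU2F3 library lay above every sgRosa library in 1 member, NOL6, against 14.7% of all genes, and below in 1, FBL, against 15.3%. Without the skewed pair these were 2, RRS1 and NOL6, against 22.8%, and 1, FBL, against 24.8%. Single sgRosa libraries moved the count: 6 members rose without replicate 3 and 1 fell without replicate 2. Other genes did change in these cells. Of 11 tuft-like markers tested 0 rose and 9 fell, with a median of −1.03, and of 6 epithelial markers 3 rose and 0 fell.

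Several members differed widely among the L191A sgRosa libraries, of which replicate 1 is one of the skewed pair. UTP20 was at 10.2, 18.7 and 27.9 scaled TPM with sgRosa and 27.9, 27.4 and 27.3 with sgPOU2F3. NOP2 was at 44.2, 68.2 and 93.3 scaled TPM with sgRosa and 90.95, 90.7 and 93.8 with sgPOU2F3. FBL was at 4476, 1141 and 1252 scaled TPM with sgRosa and 1005, 1039 and 1078 with sgPOU2F3. The skewed library was the lowest for UTP20 and NOP2 and the highest for FBL, and replicates 2 and 3 were also apart for UTP20 and NOP2. Without the pair the differences of UTP20, NOP2 and FBL were 0.26, 0.20 and −0.20, with adjusted p-values of 0.2, 0.374 and 0.405. Among the subunits of one large subunit complex, PES1 was at 314, 130.9 and 151 scaled TPM with sgRosa and 137, 141 and 149 with sgPOU2F3. BOP1 was at 265, 117 and 157 scaled TPM with sgRosa and 136, 145 and 132 with sgPOU2F3. WDR12 was at 322, 179 and 206 scaled TPM with sgRosa and 174, 165 and 187 with sgPOU2F3. All 3 were highest in the skewed library, and for PES1 and BOP1 the sgPOU2F3 libraries lay within the range of sgRosa replicates 2 and 3. NCL was at 1853, 1300.5 and 1691 scaled TPM with sgRosa and 1444, 1428 and 1333 with sgPOU2F3, and NPM1 at 4203, 1394 and 1495 scaled TPM with sgRosa and 1367, 1408 and 1493 with sgPOU2F3. Of the polymerase subunits, POLR1A was at 9.72, 26.9 and 34.2 scaled TPM with sgRosa and 29.2, 30.2 and 30.5 with sgPOU2F3, POLR1B at 22.05, 42.8 and 53.3 scaled TPM with sgRosa and 49.03, 50.5 and 49.8 with sgPOU2F3 and POLR1C at 203, 77.4 and 87.5 scaled TPM with sgRosa and 83.6, 81.5 and 91.2 with sgPOU2F3. The skewed library was the lowest for POLR1A and POLR1B and the highest for POLR1C.

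Members with small p-values in EV cells were not called in L191A cells. RRP9 was at 49.8, 24.6 and 33.8 scaled TPM with sgRosa and 27.7, 27.6 and 29.8 with sgPOU2F3, and RRS1 at 44.5, 23.7 and 30.6 scaled TPM with sgRosa and 31.3, 31.8 and 33.4 with sgPOU2F3. GRWD1 was at 69.8, 63.3 and 77.6 scaled TPM with sgRosa and 70.8, 74.8 and 60.6 with sgPOU2F3, and NOL6 at 21.03, 20.2 and 25.9 scaled TPM with sgRosa and 25.9, 27.7 and 26.6 with sgPOU2F3. RRP12 was at 21.97, 13.8 and 20.8 scaled TPM with sgRosa and 19.00, 19.4 and 20.2 with sgPOU2F3. Apart from NOL6, each of these genes overlapped between guides in 18 libraries. RRS1 overlapped only through the skewed library. Of the genes that rose in WT cells, NOP56 was at 663, 395 and 496 scaled TPM with sgRosa and 433, 427 and 450.2 with sgPOU2F3, and NOP58 at 425, 331 and 364 scaled TPM with sgRosa and 359, 359.6 and 372 with sgPOU2F3. GNL3 was at 276, 124 and 141 scaled TPM with sgRosa and 139, 139.6 and 132 with sgPOU2F3, and NOLC1 at 91.9, 101 and 132 scaled TPM with sgRosa and 119, 114 and 123 with sgPOU2F3. LYAR was at 235, 88.8 and 129 scaled TPM with sgRosa and 118, 109 and 118 with sgPOU2F3, and DDX21 at 66.9, 90.99 and 121 scaled TPM with sgRosa and 119.6, 119 and 118 with sgPOU2F3. These 6 genes overlapped between guides in L191A cells too. NOP14 was at 80.8, 65.4 and 93.3 scaled TPM with sgRosa and 76.5, 81.8 and 73.2 with sgPOU2F3, also overlapping.

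The response to the guide was called smaller in L191A than in EV cells for 16 members and larger for 0, against 5.84% of all genes called lower. Without the skewed pair these were 28 and 0, against 15% of all genes. The guide difference within L191A cells was below 0 in 20 of 35 members, or in 12 in 16 libraries, with none called. The median difference of the responses was −0.85, or −0.71 in 16 libraries. It was −1.02, SE 0.17, adjusted p = 0.00112 for GRWD1 and −1.66, SE 0.30, adjusted p = 0.00231 for RRP9. It was −1.23, SE 0.24, adjusted p = 0.00422 for RRS1 and −1.07, SE 0.21, adjusted p = 0.00431 for RRP12. These 4 had the smallest p-values and span 3 roles, a snoRNP protein, 2 large subunit factors and a small subunit factor. The count fell to 8 without EV sgRosa replicate 3 or EV sgPOU2F3 replicate 1, to 9 without EV sgPOU2F3 replicate 3 or L191A sgPOU2F3 replicate 1 and to 10 without L191A sgPOU2F3 replicate 3.

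Between L191A and WT cells 4 members differed in response, all with a smaller one in L191A cells, against 7.23% of all genes. The difference was −1.16, SE 0.31, adjusted p = 0.0288 for WDR12 and −1.03, SE 0.30, adjusted p = 0.0403 for NOP56. It was −1.16, SE 0.36, adjusted p = 0.0457 for GNL3 and −0.79, SE 0.25, adjusted p = 0.0491 for NOP58. In 16 libraries 2 were called, WDR12 (−0.70, SE 0.19, adjusted p = 0.0247) and WDR3 (−0.44, SE 0.14, adjusted p = 0.0461), against 7.97% of all genes, a share near the background. Leaving out 1 library gave 0 to 16 calls. There were 0 without WT sgRosa replicate 1 or 2, WT sgPOU2F3 replicate 1 or L191A sgPOU2F3 replicate 1 or 2, and 1 without WT sgRosa replicate 3 or L191A sgPOU2F3 replicate 3. There were 2 without WT sgPOU2F3 replicate 2, 11 without WT sgPOU2F3 replicate 3, and 16 and 15 without L191A sgRosa replicates 2 and 3. The 3 comparisons of responses share libraries with one another.

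**Figure D5:**
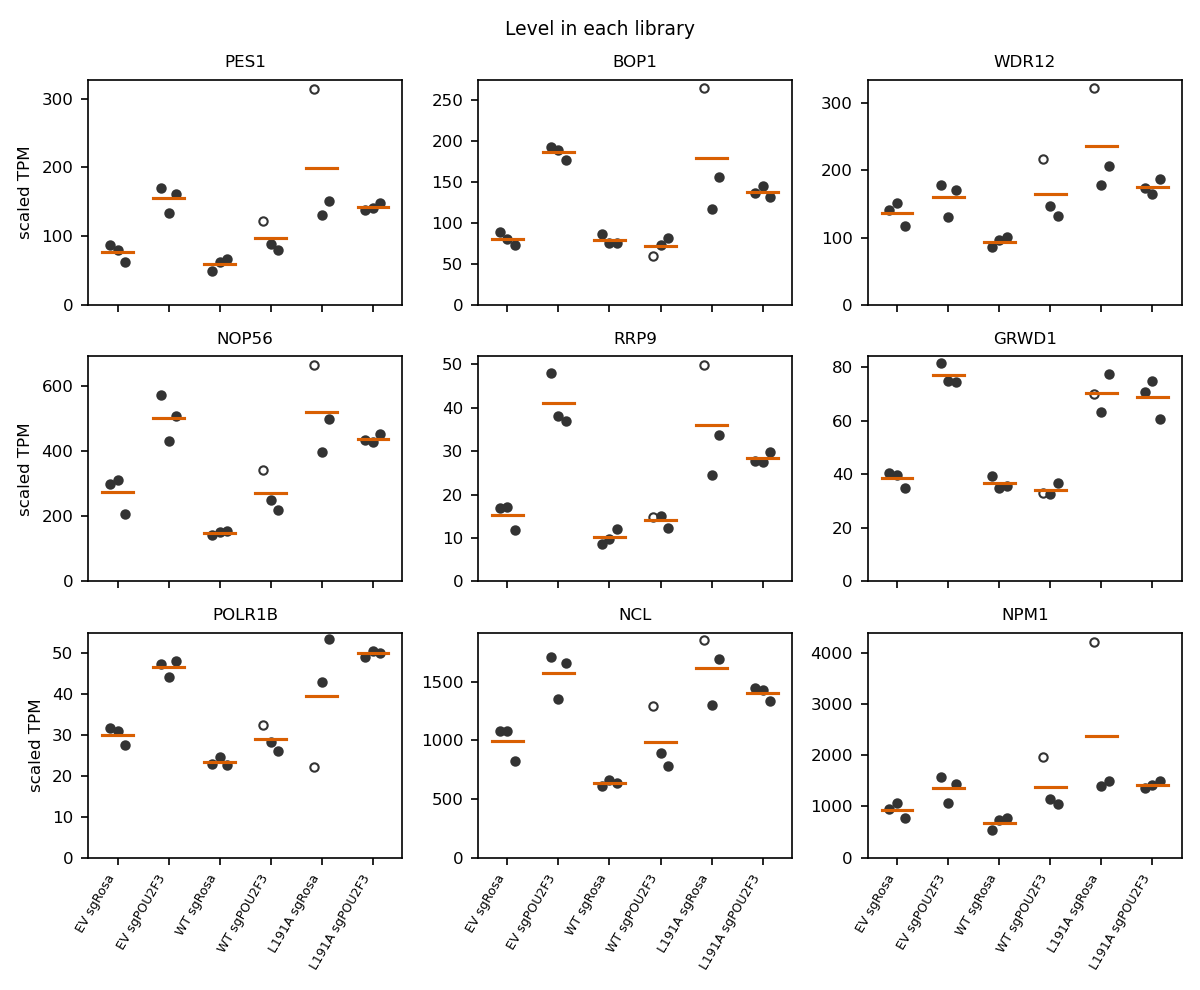
Scaled TPM of 9 members in every library, on linear axes from 0, by group; points are libraries, open points the skewed pair and bars group means. For GRWD1 the EV sgPOU2F3 libraries (74.3 to 81.6) lie above EV sgRosa (34.8 to 40.6), the WT groups lie at 32.7 to 39.4, and both L191A groups lie at 60.6 to 77.6.

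The lines already differed under the control guide. With sgRosa, 25 of 35 members were higher in L191A than in EV cells and 0 lower, against 17.3% of all genes called higher, and 34 and 0 without the skewed pair, against 21.3% higher and 18.8% lower, where GNL3 was the exception. The L191A libraries lay above all EV libraries in 26 members and below in 0, against 24.9% and 21.2% of all genes, and in 34 and 0 without the pair, against 34.0% and 29.7%. The median difference was 0.70, or 0.60 in 16 libraries. All 5 snoRNP proteins were higher, with 9 of 12 large subunit factors, 7 of 10 small subunit factors, 3 of 5 nucleolar proteins and 1 of 3 polymerase subunits. PES1 differed by 1.27 (SE 0.26, adjusted p = 0.0027) and BOP1 by 1.07 (SE 0.21, adjusted p = 0.00237). RRP9 differed by 1.15 (SE 0.21, adjusted p = 0.00124) and GRWD1 by 0.85 (SE 0.12, adjusted p = 9.89e-05). Their libraries, given above, do not overlap between the lines. Without EV sgRosa replicate 3 the count was 11. Without median-ratio scaling the median of all genes was −0.56 and 8 members were called. NOL6, NOP14, NOP58, PNO1, TSR1 and WDR43 then turned negative, as did NCL with quantile normalization in 18 libraries.

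WT cells lay at the other end under sgRosa. There 7 members were lower than in EV cells and 0 higher, against 6.16% of all genes called lower and 7.3% higher. In 16 libraries 27 were lower, against 24.3% of all genes. The 7 were the snoRNP protein NOP56 (−0.84, SE 0.21, adjusted p = 0.0158), with NOLC1 (−0.72), GNL3 (−0.80), DDX21 (−0.60), NIP7 (−0.58), TSR1 (−0.50) and WDR43 (−0.47). No call was left without EV sgRosa replicate 1 or 2, 1 without WT sgRosa replicate 1 or 2, and 2 without WT sgRosa replicate 3. BOP1, GRWD1 and RRP12, whose guide groups overlapped in WT cells, had differences between the lines of −0.02, −0.07 and 0.06. L191A against WT cells under sgRosa gave more calls: 33 members were higher and 0 lower, against 28.5% of all genes, and 35 without the skewed pair, against 32.1%, with medians of 1.18 and 1.06. In the 16 libraries the L191A values lay above the WT values in 35 members, against 40.4% of all genes. Without median-ratio scaling 16 members were called, and NOL6, NOP14, NOP2, POLR1B, RRP12, RRP1B and UTP20 turned negative.

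With sgPOU2F3, WT cells were again the lowest. In WT cells 23 members were lower than in EV cells and 0 higher, against 15.9% of all genes called lower, and 32 without the skewed pair, against 26.1%, where FBL, NPM1 and WDR12 were the exceptions. The median differences were −0.76 and −0.90. RRP9 differed by −1.47 (SE 0.21, adjusted p = 8.14e-05) and RRS1 by −1.33 (SE 0.17, adjusted p = 2.59e-05). BOP1 differed by −1.37 (SE 0.21, adjusted p = 0.000173) and UTP20 by −1.21 (SE 0.22, adjusted p = 0.000803). L191A cells were higher than WT cells in 20 members and lower in 0, against 10.8% of all genes. Without the skewed pair these were 32 and 0, against 23.1%, with FBL, NPM1 and WDR12 again not called, and the medians were 0.72 and 0.79. Between L191A and EV cells limma called 0 members in 18 libraries, against 4.04% of all genes higher and 4.24% lower, and 3 (NOL6, NOP14 and RRP9) were lower at an unadjusted p under 0.05. In 16 libraries 6 were lower, against 15.9% of all genes, and 1, HEATR1, higher, against 14.9%, so the members' shares were near or below the background. The lower ones were RRP9 (−0.51, SE 0.16, adjusted p = 0.0222), BOP1 (−0.43, SE 0.11, adjusted p = 0.00583), NIP7, BYSL, NOL6 and RRP1B. Comparisons between lines under one guide share libraries with one another.

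Genes of the same pathway outside the list were read next, in 5 lists of 145 tested genes. In EV cells 48 rose and 1 fell in 18 libraries, against 13.0% of all genes called higher and 13.4% lower. In 16 libraries 111 rose and 4 fell, against 28.6% and 26.8%. The median difference was 0.49 against 0.01 for all genes. Of 12 other RNA polymerase I factors 3 rose and 0 fell. They were CD3EAP, a polymerase subunit, from 11.8 ± 1.79 to 27.3 ± 3.87 scaled TPM (SD, n = 3; log2 difference 1.14, SE 0.17, adjusted p = 8.97e-05), with POLR1E and TAF1A. Of 14 other snoRNP proteins and assembly factors 3 rose and 1 fell. ZNHIT6, a box C/D assembly factor, rose from 27.5 ± 1.29 to 84.3 ± 5.10 scaled TPM (log2 difference 1.58, SE 0.17, adjusted p = 4.2e-06). TGS1 fell from 50.4 ± 2.42 to 32.7 ± 0.287 scaled TPM (log2 difference −0.61, SE 0.15, adjusted p = 0.00758). Of 49 other small subunit factors 17 rose and 0 fell, led by DHX37, a processome helicase, from 11.6 ± 1.80 to 33.02 ± 5.21 scaled TPM (log2 difference 1.43, SE 0.24, adjusted p = 0.000306), with NOC4L and WDR46. Of 54 other large subunit factors 23 rose and 0 fell, among them the helicases DDX54 and DDX31 and the assembly factor RRP15, which rose from 34.8 ± 4.75 to 79.7 ± 12.3 scaled TPM. Of 16 exosome and related genes 2 rose and 0 fell, near the share of all genes called higher. These were ISG20L2 (log2 difference 0.76, SE 0.12, adjusted p = 0.000194) and EXOSC2. RNA polymerase III, which makes 5S rRNA and was counted apart, had 4 of 11 subunits up and 1 down. The 145 genes gave 47 rises and 1 fall in WT cells, against 7.61% of all genes called higher and 5.09% lower. They gave 1 rise and 0 falls in L191A cells, against 6.4% and 3.37%. Under sgRosa 86 of them were higher and 1 lower in L191A than in EV cells, against 17.3% and 14.1% of all genes.

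The ribosomal proteins themselves form a separate list. Of 79 cytosolic ribosomal protein genes 0 rose and 0 fell in EV cells by limma in 18 libraries, against 13.0% and 13.4% of all genes. There were 0 at an unadjusted p under 0.05, and the median difference was −0.01. In 16 libraries 2 rose and 2 fell, against 28.6% and 26.8%. In WT cells their median was 1.00 with 0 calls, against 7.61% of all genes called higher, and 44 higher at an unadjusted p under 0.05. In 16 libraries it was 0.70 with 41 higher, against 17.4% of all genes. In L191A cells it was −0.83 with 0 calls, against 3.37% of all genes called lower, and 9 lower at an unadjusted p under 0.05. It was −0.16 in 16 libraries. A high ribosomal protein share is what sets the skewed pair apart. Outside the pair it was still 26.4% and 25.3% in WT sgPOU2F3 replicates 2 and 3, against 17.6%, 22.3% and 22.5% in the WT sgRosa libraries. The part of this share in the WT and L191A values of the members was not tested.

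The MYC and MAX network was read gene by gene. MYC was at 232, 222 and 193 scaled TPM with sgRosa and 223, 209 and 219.9 with sgPOU2F3 in EV cells, overlapping groups with a difference of 0.02 (SE 0.11, adjusted p = 0.932). MAX, its DNA-binding partner, was at 72.4, 82.3 and 59.3 scaled TPM with sgRosa and 90.2, 84.8 and 91.9 with sgPOU2F3, with a difference of 0.33 (SE 0.13, adjusted p = 0.0851) in 18 libraries and an adjusted p of 0.0152 in 16. MAX-binding antagonists of MYC fell in EV cells. MXD4 was at 32.3, 29.8 and 36.7 scaled TPM with sgRosa and 10.5, 15.4 and 10.7 with sgPOU2F3, and changed by −1.38 (SE 0.24, adjusted p = 0.000403). MXD3 was at 21.3, 21.5 and 23.8 scaled TPM with sgRosa and 9.89, 11.7 and 12.5 with sgPOU2F3, and changed by −0.91 (SE 0.27, adjusted p = 0.0188). MXD1 was at 13.3, 13.8 and 12.8 scaled TPM with sgRosa and 7.20, 8.12 and 7.33 with sgPOU2F3, and changed by −0.74 (SE 0.15, adjusted p = 0.00128). None of these 3 overlapped between guides. MXI1 was at 25.3, 25.7 and 24.5 scaled TPM with sgRosa and 18.5, 18.4 and 17.3 with sgPOU2F3, and changed by −0.46 (SE 0.09, adjusted p = 0.00115). The MYC paralogs MYCN and MYCL, at means of 5.24 and 4.91 with sgRosa, fell too (log2 differences −0.74 and −0.66). MNT, MGA, MLX and MLXIP had differences of 0.05, −0.27, 0.28 and 0.32, none called in 18 libraries. In all, 0 of 12 network genes rose and 6 fell in 18 libraries, against 13.4% of all genes called lower. In 16 libraries the same 6 fell, MGA fell too (−0.27, adjusted p = 0.00746) and MAX rose. The shares of all genes were then 26.8% lower and 28.6% higher.

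MYC was called for the guide in L191A cells and not in WT cells, and that difference between the lines was itself called (−0.74, SE 0.16, adjusted p = 0.0108). The difference turned to 0.22 without median-ratio scaling in 18 libraries, and was −0.72 (adjusted p = 0.00167) with scaling in 16. MYC was at 256, 254 and 282 scaled TPM with sgRosa and 173, 183 and 174 with sgPOU2F3 in L191A cells, without overlap, and changed by −0.58 (SE 0.11, adjusted p = 0.00317) where no member was called. It was at 168, 171 and 173 scaled TPM with sgRosa and 201, 192 and 179 with sgPOU2F3 in WT cells, a difference of 0.16 (adjusted p = 0.312). With sgRosa, MYC was higher in L191A than in WT cells by 0.62 (SE 0.11, adjusted p = 0.000569). In 18 libraries this turned to −0.18 without median-ratio scaling and to −0.076 with quantile normalization. With scaling in 16 libraries it was 0.65 (adjusted p = 2.91e-05). MXD4 was at 39.3, 40.9 and 46.4 scaled TPM with sgRosa and 11.1, 24.9 and 25.7 with sgPOU2F3 in WT cells, and changed by −1.08 (SE 0.24, adjusted p = 0.0127), the lowest value being in the skewed library. In L191A cells MXD4 was at 16.5, 17.1 and 13.01 scaled TPM with sgRosa and 12.8, 13.05 and 13.1 with sgPOU2F3.

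Other lists place the members beside the growth state and identity of the cells. Of 28 replication and mitosis genes 6 rose and 0 fell in EV cells in 18 libraries, with a median of 0.32. Among all genes 13.0% were called higher and 13.4% lower, shares that apply to each EV count below. CCND1, the G1 cyclin D1, rose from 208 ± 11.9 to 480.1 ± 35.2 scaled TPM (log2 difference 1.20, SE 0.16, adjusted p = 4.06e-05), and the replicative helicase subunits MCM5 and MCM4 rose from 30.4 ± 4.67 to 54.99 ± 2.01 scaled TPM and from 59.00 ± 6.78 to 87.3 ± 2.67 scaled TPM. Of 18 p53 targets tested 4 rose and 3 fell, in both directions and not far from the shares of all genes. AEN, a nucleolar nuclease, rose from 8.27 ± 0.593 to 25.8 ± 1.34 scaled TPM, the cell cycle inhibitor CDKN1A rose from 3.77 ± 0.392 to 11.02 ± 0.457 scaled TPM, and TP53INP1 fell from 14.3 ± 2.77 to 2.48 ± 0.403 scaled TPM. Cell identity markers moved in the same cells. Of 11 tuft-like markers 8 fell and 0 rose, and the summed level of the list was 2993 to 3167 scaled TPM with sgRosa and 1139 to 1241 with sgPOU2F3. Of 6 epithelial markers 3 rose and 0 fell, and the summed level of the list was 1532 to 1703 with sgRosa and 2569.9 to 3309.7 with sgPOU2F3. In L191A cells the tuft sum was 2157 to 2308 with sgRosa and 1117 to 1135 with sgPOU2F3, while no member was called. The part of these markers in the members' values was not tested.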

How the data were processed

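The table deposited by the authors holds TPM values per gene name and library, made with kallisto on hg38, per the submitters' processing notes. The kallisto version and transcript set and the handling of strand were not given in the sources used here. PolyA RNA had been extracted with TRIzol and made into TruSeq libraries, per the labels' protocols. Each TPM column has the same total, so depth is unknown and no count test could be run. Entries that were spreadsheet dates or name fragments (115, with 1.46% to 2.20% of TPM per library) were left out.

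TPM were divided by median-ratio size factors over the 14573 genes above 0 in all libraries, genes with a mean of at least 1 scaled TPM were kept, and log2(scaled TPM + 1) was fitted with limma 3.58.1 (R 4.3.3, trend) in 1 model of 6 groups over 18 libraries. P-values were adjusted by Benjamini-Hochberg over all 13009 genes within each of 12 contrasts: 3 effects of the guide, 6 between lines under 1 guide and 3 differences of responses. A gene was called at an adjusted p of 0.05, and the same fit was run without the skewed pair. The fitting script was tested on simulated data.

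Members and gene lists were chosen with earlier results of these data known. Every library's values are given for PES1, BOP1, WDR12, NCL, NPM1 and the polymerase subunits, for the 2 members of each role with the smallest p in EV cells, and for the 3 with the smallest p (or up to 4 called) in the other guide effects and in the responses; beyond the members, POU2F3 and MYC network genes are named always and other lists by up to 3 genes with the smallest p. Gene positions are from GENCODE v29 on GRCh38, the assembly that hg38 names, and promoters from RefSeq. Alternatives were unscaled TPM, quantile normalization, other pseudocounts and filters, a replicate block, removal of the length trend and leaving out each library. Unscaled TPM and removal of the length trend within the 16 libraries were added after seeing the data. Some results are not reported here.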

Additional observations from a re-analysis of the deposited data

Results flagged for a closer look

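The response of some members to sgPOU2F3 differed between lines in the test of that difference (limma, 18 libraries, Benjamini-Hochberg over all genes tested). The difference was negative for all of them, and a negative value means a smaller response in the first line named.

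For WT minus EV, 7 members were called, against 7.99% of all genes called lower, and 6 were called without any 1 of the EV or WT libraries, RRP9 losing its call. They were GRWD1 at −1.08, NOL6 at −0.94, RRP12 at −1.05, NOP14 at −0.85, BOP1 at −1.36, RRS1 at −1.0 and RRP9 at −0.93 on the log2 scale. Adjusted p-values ran from 0.000376 for GRWD1 to 0.0472 for RRP9.

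For L191A minus EV, 16 members were called, against 5.84% of all genes called lower, and leaving out 1 library gave 8 to 22 calls. The snoRNP proteins were RRP9 at −1.66 and NOP56 at −1.10. The small subunit factors were RRP12 at −1.07, NOL6 at −0.75, BYSL at −1.18, NOP14 at −0.70 and PNO1 at −0.72. The large subunit factors were GRWD1 at −1.02, RRS1 at −1.23, BOP1 at −1.5, MRTO4 at −1.27, NIP7 at −1.01, PES1 at −1.38, NOP16 at −1.62 and WDR74 at −1.48. LYAR, of the nucleolar proteins, was at −1.43. Adjusted p-values ran from 0.00112 for GRWD1 to 0.0484 for WDR74.

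For L191A minus WT, 4 members were called, against 7.23% of all genes called lower, and leaving out 1 library gave 0 to 16 calls. They were WDR12 at −1.16, NOP56 at −1.03, GNL3 at −1.16 and NOP58 at −0.79, with adjusted p-values from 0.0288 for WDR12 to 0.0491 for NOP58. L191A sgRosa replicate 1 and WT sgPOU2F3 replicate 1, the skewed libraries, enter these fits. Without them WDR12 was still called, and NOP56, GNL3 and NOP58 were not.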

How the results depend on the processing

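Read depth is unknown, so counting error could not be set beside any value. Without the 2 skewed libraries the WT effect had 15 calls, WT minus EV with sgRosa 27, L191A minus EV and L191A minus WT with sgPOU2F3 7 and 32, and the responses 17 (WT minus EV), 28 (L191A minus EV) and 2 (L191A minus WT). With TPM as deposited and all libraries, the calls were 1 for the WT effect, 4, 8 and 16 for WT minus EV, L191A minus EV and L191A minus WT with sgRosa, and 6 and 0 for the responses L191A minus EV and L191A minus WT; the medians of the WT effect and of the last response turned to −0.00652 and 0.51. There the single-gene values for L191A minus EV with sgRosa turned to −0.16 (NOL6), −0.26 (NOP14), −0.00227 (NOP58), −0.057 (PNO1), −0.27 (TSR1) and −0.21 (WDR43), and NCL to −0.22 with quantile normalization. For L191A minus WT with sgRosa they turned to −0.13 (NOL6), −0.10 (NOP14), −0.13 (NOP2), −0.12 (POLR1B), −0.051 (RRP12), −0.20 (RRP1B), −0.030 (UTP20) and −0.18 (MYC, −0.076 with quantile normalization). Responses turned to 0.019 (MYC, L191A minus EV), 0.22 (MYC, L191A minus WT) and 0.17 (NOP58, L191A minus WT). With TPM as deposited and 16 libraries, calls were 21 for WT minus EV with sgRosa, 35, 7 and 34 for WT minus EV, L191A minus EV and L191A minus WT with sgPOU2F3, and 25 and 0 for the responses WT minus EV and L191A minus WT. With the length trend removed, the WT effect had 14 calls, WT minus EV with sgRosa 11 and the response L191A minus WT 7. The length trend removed in 16 libraries gave 35 for the EV effect, 18 for the WT effect, 29 for WT minus EV with sgRosa, 5 and 32 for L191A minus EV and L191A minus WT with sgPOU2F3, and 17, 30 and 2 for the responses. Quantile normalization gave 12 for the response WT minus EV, a minimum mean of 5 gave 4 for WT minus EV with sgRosa, and no filter gave 2 for the response L191A minus WT. The causes were not tested.

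Leaving out 1 library in turn gave 17 to 22 calls for the EV effect, 0 to 13 for the WT effect and 0 to 6 for the L191A effect. With sgRosa it gave 0 to 5 (WT minus EV), 11 to 31 (L191A minus EV) and 29 to 35 (L191A minus WT), and with sgPOU2F3 17 to 25, 0 to 0 and 14 to 22 in the same order. For the responses it gave 6 to 6, 8 to 22 and 0 to 16.

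Replicate numbers in the labels were checked for pairing. In their deviations 16 of 45 same-numbered pairs correlated over 0.1, and 8 of 18 libraries matched their own number best. Correlations of same-numbered pairs ran from −0.60 to 0.62, with a median of −0.015 against 0.00094 for other pairs. These values cannot decide whether libraries of one number shared a batch, and the main fit used no pairing. With a replicate block the calls were 24, 10 and 0 for the EV, WT and L191A effects, 6, 25 and 33 with sgRosa, 25, 0 and 21 with sgPOU2F3, and 6, 16 and 10 for the responses, in the same order.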
